A study of Mus musculus with 6 samples.

Results

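Chromosome 8 of E14 mouse embryonic stem cells was described along its length from single-base lists of 2 oxidised forms of 5-methylcytosine. Its members were all listed cytosines on that chromosome: 1362264 of 20807956 cytosines listed for 5-hydroxymethylcytosine (5hmC) and 486840 of 6248342 listed for 5-formylcytosine (5fC). The chromosome was chosen by its density of listed sites and its reads per site, which had been found to exceed those of other autosomes, so these values are a description and carry no test. Chromosomes 1 to 19 without 8 and 11 (the other 17 autosomes) served as the comparison.

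E14 is a male embryonic stem cell line of the mouse, grown here with serum and LIF on gelatin. By the labels, cells of passage 14 gave 2 technical replicates for 5fC and 2 for 5hmC, a further culture of passage 12 gave 2 for 5hmC, and no treatment or genotype is named. In Pvu-Seal-seq the enzyme PvuRts1I cuts at a known distance from a modified cytosine and tagged fragments are captured, so the cut end locates the base. The deposited tables hold 1 read number per cytosine and mark, pooled over libraries, so no value here has a replicate error and no difference could be set against a spread between replicates. The name of the 5hmC table carries the mark of the first biological replicate, which by the labels is passage 14, but the labels of both cultures name it. Whether the culture at passage 12 contributes to the 5hmC table is not stated.

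TET enzymes oxidise 5-methylcytosine to 5hmC and further to 5fC, which the glycosylase TDG can remove. In embryonic stem cells both marks are known mainly from CG dinucleotides, in active and poised parts of the genome. Chromosome 8 is known in mouse embryonic stem cell culture as a chromosome that is often gained as a whole extra copy, and gains of chromosome 11 are known too. No karyotype or input DNA was used here, so the number of chromosome copies and the amount of mark per copy cannot be told apart in any value below. No mm9 sequence or annotation was used either, so bins carry positions but no gene names or bases.

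Chromosome 8 held 20738501 reads of 5hmC, 7.86% of all 5hmC reads, and 8656601 reads of 5fC, 8.46% of all 5fC reads, on 4.99% of the listed nuclear length. Listed 5hmC sites ran from base 3028192 to base 131736545 (mm9, as are all positions below). The chromosome had 10341 5hmC sites per Mb, against 7917 on the other 17 autosomes together, a ratio of 1.31. The densest of those 17, chromosome 19, reached 9742. For 5fC it had 3696 sites per Mb, against 2310 on the other 17 autosomes, a ratio of 1.60, and their densest had 3056. Summed over sites, the ratio of reads per Mb was 1.61 for 5hmC and 1.77 for 5fC.

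Reads per site were also above the others. A 5hmC site on chromosome 8 had 15.2 reads on average, against 12.3 on the other 17 autosomes, where single chromosomes ran from 11.8 to 13.2. A 5fC site had 17.8 reads, against 16.1, with single chromosomes between 15.5 and 18.4. The upper end of that 5fC range was chromosome 2, so that 16 of the 17 lay below chromosome 8. These means include very deep sites. The 17 held 162 5fC sites above 1000 reads, with 1.62% of their 5fC reads, and chromosome 8 held 0. By the median, each of the 17, chromosome 2 among them, had 12 reads per 5fC site. The medians differed less: 9 reads per 5hmC site on chromosome 8 against 8, and 13 reads per 5fC site against 12. The distance widened in the upper tail, with a 95th percentile of 48 reads per 5hmC site against 36, and of 47 reads per 5fC site against 40.

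The excess of chromosome 8 sites therefore depended on how many reads a site had. Sites with 2 5hmC reads were 1.17 times as dense as on the other 17 autosomes, within the 0.852 to 1.19 of their single chromosomes. The ratio was 1.26 at 9 to 16 reads, 2.02 at 33 to 64 reads and 3.77 above 64 reads, where no single chromosome among the 17 exceeded 1.34. In absolute terms, chromosome 8 had 233 5hmC sites per Mb with more than 64 reads and the other 17 autosomes had 61.8. The 5fC list had the same order, with a ratio of 1.37 at 2 reads and 2.75 above 64 reads. Chromosome 11 reached 5.04 for 5hmC and 3.73 for 5fC above 64 reads.

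**Figure D1:**
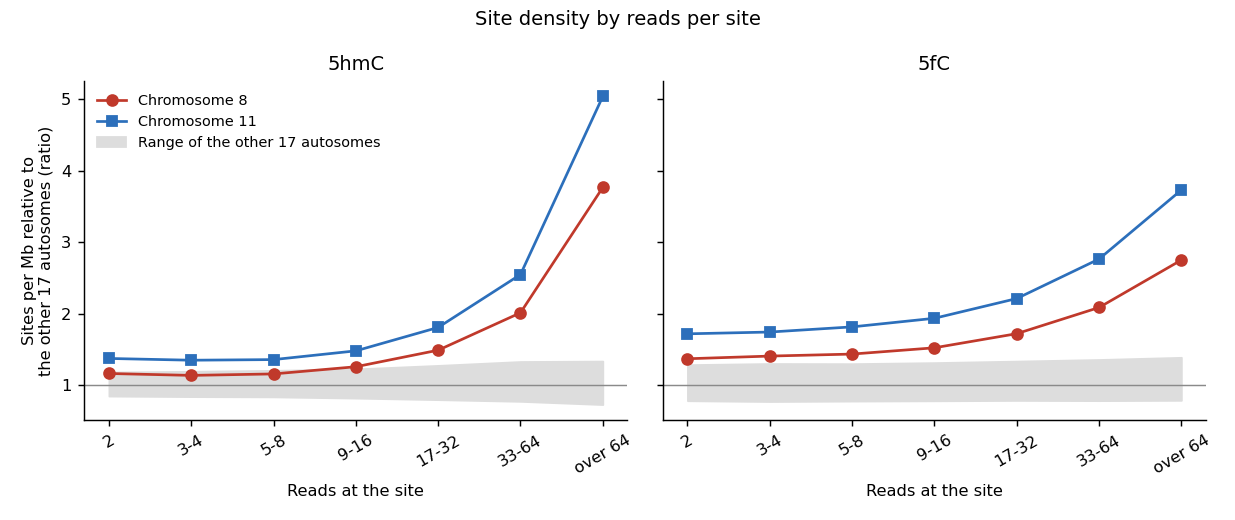
Listed sites per Mb relative to the other 17 autosomes (ratio, vertical axis) by the number of reads at the site (horizontal axis), for 5hmC on the left and 5fC on the right. Lines are chromosome 8 and chromosome 11, and the grey band is the range of single chromosomes among the other 17. Chromosome 8 leaves the 5hmC band from 9 to 16 reads upward and ends at 3.77, against a band that ends at 1.34.

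To ask whether this excess was spread over the chromosome or sat in segments, chromosome 8 was divided into 132 bins of 1 Mb. Of these, 4 held no listed 5hmC site and the other 128 held at least 100. Each bin was compared with bins of like density. For this, the bins of the other 17 autosomes were put into 20 groups by their number of 5hmC sites, and a bin's value was divided by the median of its group. A ratio of 1 thus means the level usual at that density. Since density is itself part of the excess, a dense chromosome 8 bin is set against bins that are dense without it.

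By this measure the excess of 5hmC reads per site ran nearly the whole length. The ratio was above 1 in 123 of 128 bins, 96.1%, against 49.9% of the 2160 bins of the other 17 autosomes. Single chromosomes among the 17 had between 40.9% and 56.2%. The median ratio was 1.19 on chromosome 8, and the medians of the 17 lay between 0.984 and 1.01. Of the 128 bins, 95 exceeded the 90th percentile of their group, 74.2%, against a background of 10.2%. On chromosome 11 it was 84.9% of bins. Bins are neighbours on 1 DNA and are not replicates, so these counts describe the chromosome in the cells pooled here. When each bin was instead compared with bins of the same density rank within their own chromosome, an alternative chosen after the data were seen, 99.2% of bins were above the median and the median ratio was 1.23.

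**Figure D2:**
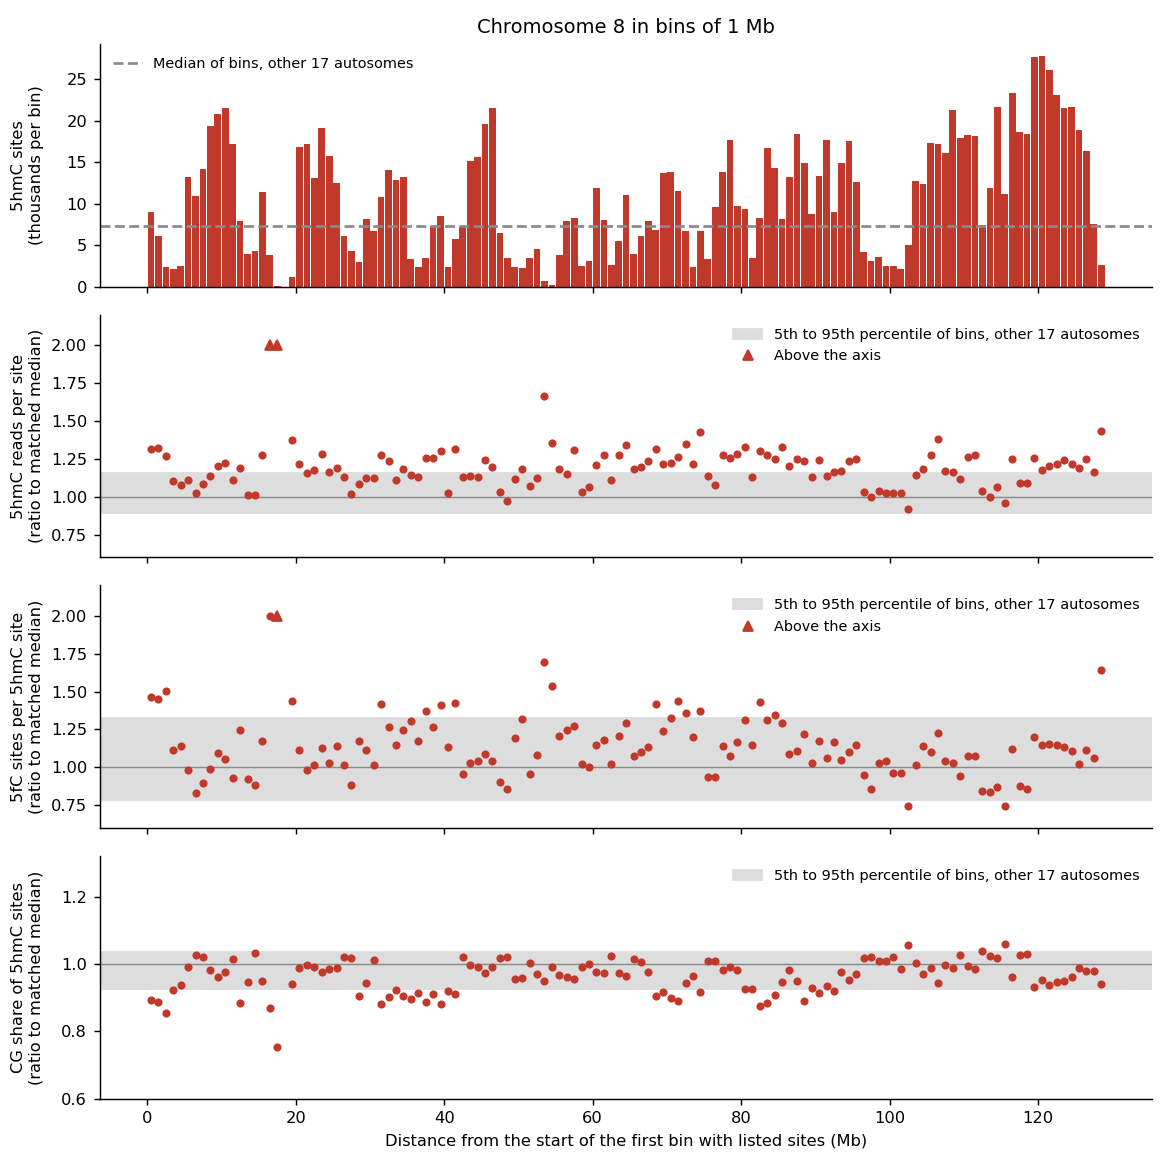
Chromosome 8 in bins of 1 Mb, by distance from the start of the first bin with listed sites (Mb). From top to bottom the panels show 5hmC sites per bin (bars, in units of 1000), and the ratios to the density-matched median for 5hmC reads per site, 5fC sites per 5hmC site and the CG share of 5hmC sites (points, 1 per bin). Grey bands span the 5th to 95th percentile of bins on the other 17 autosomes and triangles mark bins above the axis. The second panel stays above 1 in 123 of 128 bins, the third in 101 and the lowest in 30.

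None of the 5 bins at or below the matched median lay next to another, but 4 of them fell between 100000001 and 119000000. They started at 51000001, 100000001, 105000001, 116000001 and 118000001, with ratios of 0.973, 0.995, 0.917, 0.996 and 0.958. The longest unbroken run above 1 was 48 bins, from 52000001 to 100000000, with a median ratio of 1.23. The longest such run was 50 bins on chromosome 11 and 19 bins on any of the other 17 autosomes. The longest run below 1 was 1 bin on chromosome 8 and 3 bins on chromosome 11, against 6 to 18 bins on the 17. From the lower to the upper quartile, chromosome 8 bins spanned 0.119 of their median, inside the 0.0769 to 0.121 of the other 17 autosomes. The ratio was thus higher along the chromosome as a whole, with a spread between bins at the upper end of that of a single autosome.

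Blocks of 10 Mb, counted from base 1, showed where the ratio was lowest. All bins were above 1 in 11 of the 14 blocks, 9 of 10 in the block from 50000001 to 60000000, and 8 of 10 in each of the blocks from 100000001 to 110000000 and from 110000001 to 120000000. The median ratio of 5hmC reads per site lay between 1.11 and 1.30 in 13 of the 14 blocks and at 1.03 in the block from 100000001 to 110000000. The first 6 bins of that block, with at most 5077 5hmC sites each, had ratios between 0.917 and 1.04, and the bin starting at 109000001, with 17270 sites, had 1.38. The highest median among full blocks was 1.27, from 80000001 to 90000000. Leaving out any single block changed the whole-chromosome ratio of 5hmC reads per site to between 1.22 and 1.24, around its value of 1.24.

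The density of sites was less even than their reads. Leaving out the block from 120000001 to 130000000, which alone held 220303 5hmC sites, gave a ratio of 1.18 in place of 1.31 for 5hmC sites per Mb and of 1.41 in place of 1.60 for 5fC. Leaving out the sparse block from 50000001 to 60000000, with 35326 5hmC sites, gave 1.38 and 1.70. Of the chromosome 8 bins, 29 fell in the densest of the 20 groups, 22.7% of its bins against 5.00% of the bins of the other 17 autosomes, and 38.3% fell in the sparser 10 groups. Across bins, the chromosome exceeded the other 17 autosomes 1.13-fold at the 10th percentile of 5hmC sites, 1.29-fold at the median and 1.36-fold at the 75th percentile. At the 10th percentile it lay within the range of single chromosomes, 0.787 to 1.73, and so it did at the median, 0.811 to 1.38. At the 75th percentile their highest was 1.23. For 5hmC reads per site the corresponding ratios were 1.18, 1.27 and 1.25, each above the highest of the 17.

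**Figure D3:**
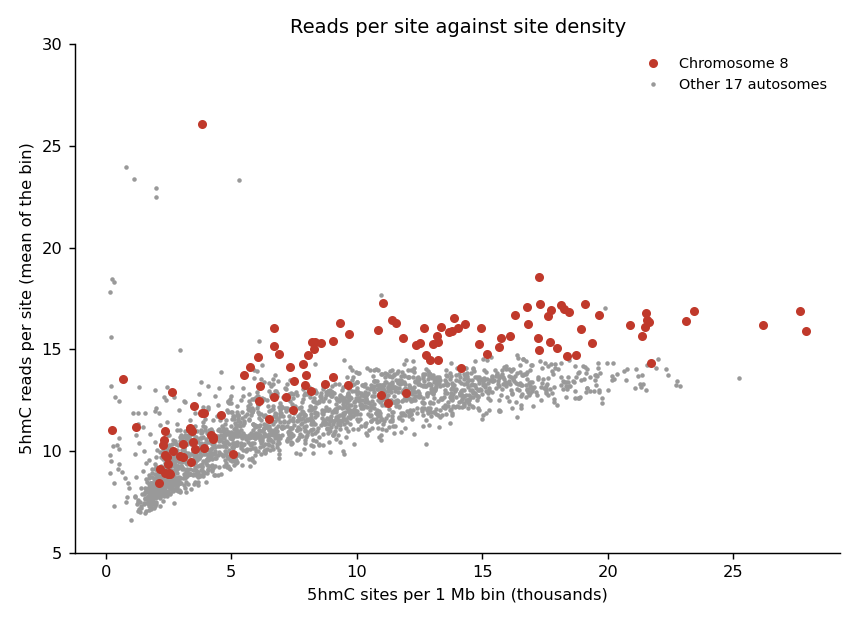
Mean 5hmC reads per site (vertical axis) against the number of 5hmC sites (horizontal axis, in units of 1000) in bins of 1 Mb, with chromosome 8 in red and the other 17 autosomes in grey. Bins above 30 reads per site, 1 on chromosome 8 and 2 on the others, are outside the axis. Of the red points, 95 of 128 exceed the 90th percentile of bins of like density, and 3 are denser than any grey point.

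The distance to matched bins differed with density. In the 36 bins of the 7 sparsest groups the median ratio of 5hmC reads per site was 1.11, and 34 of them were above 1. The 4 bins of the sparsest single group, with 113 to 1224 sites, had ratios of 5.98, 1.37, 1.66 and 1.35, above the chromosome's median of 1.19. Those at 1.37 and 1.35, starting at 22000001 and 57000001, did not exceed the 90th percentile of their group. In 5fC reads per site the bin starting at 57000001 had a ratio of 0.885, on 48 5fC sites. In the 32 bins of the next 7 groups the median was 1.25, with 31 above 1. In the 29 bins of the densest group the median was 1.21, and all 29 were above 1. Chromosome 11 had medians of 1.09, 1.19 and 1.25 in the same classes.

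The bins with most 5hmC sites lay side by side near the distal end. They were the bins starting at 123000001, 122000001 and 124000001, with 27879, 27671 and 26169 5hmC sites, each above the 25219 sites of the densest bin on the other 17 autosomes. Their 5fC sites numbered 12024, 12527 and 11381. Their 5hmC reads per site were 1.18, 1.25 and 1.20 times the median of the densest group, close to the chromosome's median ratio of 1.19. Within 100 kb windows the most 5hmC sites were found from 123000001 to 123100000 (1871 5fC and 3570 5hmC sites), from 111400001 to 111500000 (1504 and 3485) and from 119800001 to 119900000 (1737 and 3469). By 5fC sites the window from 122900001 to 123000000, with 1667, replaced the second of these.

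The sparsest bin had the most 5hmC reads per site and lay next to the deepest 5hmC cytosines. The bins starting at 20000001, 57000001 and 56000001 had the fewest 5hmC sites, 113, 243 and 668. The bin starting at 20000001, beside a bin with none, also had the highest matched ratio of 5hmC reads per site, 5.98, on 48.8 reads per site. All its 113 sites lay in its first 100 kb, the end of a stretch of deep windows that the bin border cuts. Its match to sparse bins, and so its ratio, depends on where that border falls. The bin before it, with 3854 sites, followed at 2.60 and the sparse bin starting at 56000001 at 1.66. The windows of 100 kb from 19000001 to 19700000 had between 9.75 and 13.2 5hmC reads per site. In the 4 windows from 19700001 to 20100000 they had between 42.4 and 75.0. All 7 cytosines of chromosome 8 with more than 1000 5hmC reads lay there, between 19713464 and 19982434. The deepest was 19898548 on the minus strand, a CG with 527 5fC and 1595 5hmC reads, followed by 19982434 and 19877007, both CG on the plus strand, with 1476 and 1395 5hmC reads. The deepest 5fC cytosines lay apart from each other, at 25550223 and 110059865 on the minus strand with 549 and 545 5fC reads, followed by the 527 at 19898548. The 7 cytosines above 1000 5hmC reads held 0.0447% of the chromosome's 5hmC reads, and the whole-chromosome ratio of 5hmC reads per site was 1.24 with and without sites above 1000 reads.

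Reads per site of 5fC followed the same course with smaller ratios. The ratio was above 1 in 117 of 128 bins, 91.4%. This compares with 49.9% of the bins of the other 17 autosomes and at most 61.0% on any of them. Its median was 1.11, and the medians of the 17 lay between 0.982 and 1.02. The 11 bins at or below 1 included the bins starting at 105000001, 116000001 and 118000001, which were also at or below 1 for 5hmC. Across the 128 bins the ratios of 5fC and 5hmC reads per site had a Spearman correlation of 0.81, which on the 17 lay between 0.63 and 0.79. Both ratios share their bins and their cells, and both lists come from cuts of the same enzyme.

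**Figure D4:**
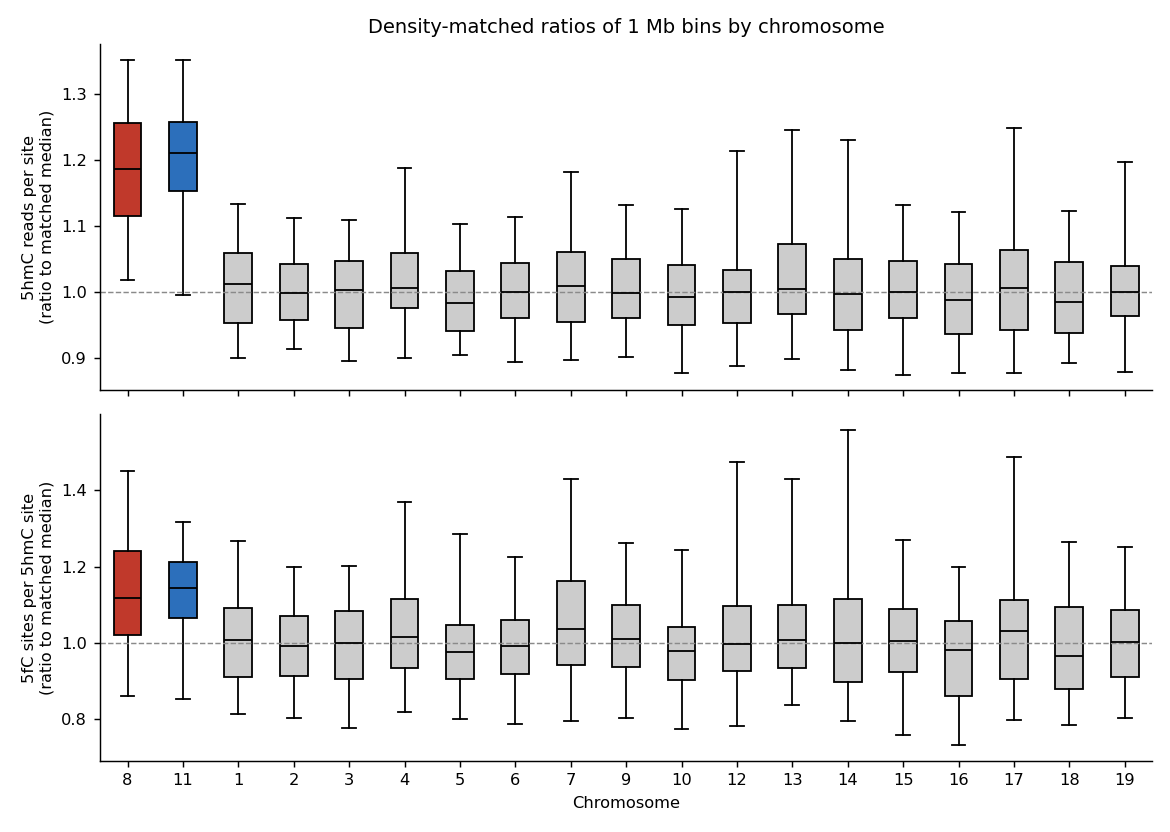
Density-matched ratios of 1 Mb bins by chromosome (horizontal axis, with 8 and 11 first), for 5hmC reads per site above and 5fC sites per 5hmC site below. Boxes span the quartiles with a line at the median and whiskers run from the 5th to the 95th percentile of bins. In the upper panel the lower quartile of chromosome 8, 1.12, lies above the upper quartile of each of the other 17 autosomes, at most 1.07, whereas in the lower panel the boxes overlap.

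Relative to 5hmC, 5fC was higher less evenly. Chromosome 8 had 0.357 5fC sites per 5hmC site, against 0.292 on the other 17 autosomes and at most 0.314 on any of them. By reads the difference was smaller, 0.417 against 0.380, and chromosome 2 reached 0.413. Bins of chromosome 2 had a median matched ratio of 5fC reads per site of 0.999 but a maximum of 141. After matching on density, 101 of 128 bins were above the median, 78.9%. This compares with 49.9% of the bins of the other 17 autosomes and at most 62.6% on any of them. The median ratio was 1.12, with medians of 0.965 to 1.04 on the 17. When only sites of at least 10 reads were kept, 61.9% of bins were above the median, and the median ratio was 1.05. No range of the 17 was computed for such sites, and 61.9% is below the 62.6% that 1 of them reached with all sites. In 96 bins, 75.0%, all 3 ratios were above 1, against 33% of the bins of the other 17 autosomes.

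The 27 bins at or below the matched median in 5fC per 5hmC formed 14 runs of at most 4 bins. The longest were from 8000001 to 12000000, with a median ratio of 0.939, and from 115000001 to 119000000, with 0.841. The lowest single bins started at 105000001, 118000001 and 9000001, at 0.743, 0.748 and 0.830. The bin at 105000001 had 796 5fC sites on 5077 5hmC sites. On single chromosomes of the 17 the longest run below was 5 to 16 bins. The longest run above was 23 bins from 55000001 to 78000000, with a median ratio of 1.21, followed by 19 bins from 80000001 to 99000000 with 1.15 and 14 bins from 31000001 to 45000000 with 1.26. The longest run above on single chromosomes of the 17 was 6 to 18 bins, and on chromosome 11 it was 31 bins. Neighbouring bins were no more alike in 5fC per 5hmC than elsewhere: the Spearman correlation between neighbours was 0.46 over 126 pairs, within the 0.22 to 0.57 of the 17, and the distance between quartiles, 0.196 of the median, was within their 0.141 to 0.222. Across the 128 bins the ratios of 5fC per 5hmC and of 5hmC reads per site, which share the 5hmC sites of a bin, had a Spearman correlation of 0.80, against 0.82 to 0.92 on the 17. The highest bins were again those starting at 20000001, 19000001 and 56000001, at 5.15, 2.00 and 1.70. The first and last of these rest on 75 and 146 5fC sites. As for reads per site, the 5.15 depends on the bin border. All 5 bins at or below 1 in 5hmC reads per site were also at or below 1 in 5fC per 5hmC, and another 22 bins were at or below 1 in 5fC per 5hmC alone.

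Bins with more 5fC per 5hmC tended to have a lower CG share. On chromosome 8 the matched ratios of 5fC per 5hmC and of the CG share of 5hmC sites had a Spearman correlation of -0.86 over 128 bins, within the -0.88 to -0.70 of the other 17 autosomes. Both use the 5hmC sites of the bin. In the 14 bins from 31000001 to 45000000 the CG share was 71.8% and its median matched ratio 0.907, and in the 19 bins from 80000001 to 99000000 they were 70.3% and 0.935. The longest run, the 23 bins from 55000001 to 78000000, did not stand out, with a CG share of 75.3% and a matched ratio of 0.967, near the chromosome's median ratio of 0.971. In the 4 bins from 115000001 to 119000000, low in 5fC per 5hmC, the CG share was 77.0% and its matched ratio 1.03.

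The CG share of the whole chromosome was below that of each of the 17. CG made up 72.5% of its 5hmC sites (Wilson interval 72.4 to 72.6%), against 76.9%, with single chromosomes between 75.4% and 78.6%. Of its 5fC sites CG made up 73.1% (73.0 to 73.2%), against 75.5%. CA made up 13.4% of 5hmC sites on chromosome 8 against 11.3%, CT 8.17% against 6.90% and CC 5.89% against 4.89%. CG sites of 5hmC were 1.23 times as dense as on the other 17 autosomes and CA, CC and CT sites 1.56, 1.57 and 1.55 times. In reads per site the order was the other way round: the ratio was 1.29 at CG and 1.16, 1.16 and 1.18 at CA, CC and CT. The medians over bins showed the same direction, with 30 of 128 bins above the matched median CG share, 23.4%, against 32.4% to 65.4% on single chromosomes of the 17.

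The CG share was also lower within classes of equal reads. Among 5hmC sites with 2 reads it was 43.9% on chromosome 8 against 53.2%, among those with 9 to 16 reads 77.7% against 83.6%, and among those with 33 to 64 reads 94.5% against 97.1%. In each of the 6 classes up to 64 reads chromosome 8 lay below the lowest of the 17, and above 64 reads it lay within their range. On the other 17 autosomes the CG share itself rose with reads, from 53.2% at 2 reads to 83.6% at 9 to 16. Since chromosome 8 had more reads per site, a class of equal reads need not hold sites of the same kind. Whether the read excess alone lowers the share was not tested, and this limit applies to the other shares at equal reads below.

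Pairing of non-CG sites with a CG also differed from matched bins. PvuRts1I is known to cut between a modified cytosine and another cytosine on the other side of the cut, and many non-CG sites of these lists have a listed CG dyad 20 to 23 bases downstream on their strand. On chromosome 8 this held for 60.4% of 374417 5hmC non-CG sites (Wilson interval 60.2 to 60.5%), against 62.5% on the other 17 autosomes (62.4 to 62.5%), within the 58.0 to 65.3% of single chromosomes. For 5fC non-CG sites it held for 61.7% against 55.7%, above the highest of the 17, 58.1%. Per Mb, 5hmC non-CG sites with such a partner were 1.50 times and those without 1.64 times as dense as on the other 17 autosomes. For 5fC the order was reversed, 1.94 and 1.52 times. Matched on density, 15 of 128 bins, 11.7%, were above the median 5hmC pairing share, against 34.1% to 76.4% on single chromosomes. By matched ratio the lowest block was from 30000001 to 40000000, with a median of 0.751 and 47.3% of non-CG sites paired, and the highest was from 120000001 to 130000000, with 0.969 and 69.0%. At equal reads the direction of the 5hmC pairing share turned. It was 40.4% on chromosome 8 against 45.0% at 2 reads and 50.2% against 54.5% at 3 to 4 reads, below the lowest of the 17 in both. At 17 to 32 reads it was 77.9% against 78.7%, and above 64 reads 58.2% of 512 sites against 39.5%, within the range of the 17 in both.

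CG dyads, in which each strand carries a cytosine, were more often listed on both strands. Of 678807 dyads with 5hmC on chromosome 8, 45.5% were on both strands (Wilson interval 45.4 to 45.6%), against 39.1% on the other 17 autosomes (39.0 to 39.1%), where no chromosome exceeded 40.3%. Of 284398 dyads with 5fC, 25.2% were on both strands (25.01 to 25.33%), against 19.4% (19.4 to 19.5%) and at most 20.4%. Matched on density, the 5hmC share was above the median in 123 of 128 bins, and 122 of these were among the 123 bins raised in reads per site.

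At equal reads the 5hmC share on both strands was within or below the range of the 17 in all 7 classes of reads. The 5fC share was above their range in the classes from 5 to 128 reads. For dyads with 17 to 32 5hmC reads the share on both strands was 58.7% on chromosome 8 and 60.1% on the other 17 autosomes, and for 65 to 128 reads 86.0% and 87.2%. In the 4 classes from 9 to 128 reads chromosome 8 lay just below the lowest of the 17. For dyads with 17 to 32 5fC reads the share was 29.7% on chromosome 8 against 27.0%, and for 33 to 64 reads 61.2% against 57.4%. In the classes from 5 to 128 5fC reads chromosome 8 lay above the highest of the 17, which had 28.2% and 58.9% in the classes just named. At 5 to 8 reads its Wilson interval, 1.47 to 1.71%, reached below their highest, 1.50%. At 2 to 4 reads it was level with their highest, 0.137% against 0.136% (Wilson interval 0.0955 to 0.197%).

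The lists of the marks overlapped more on chromosome 8. Of its 5hmC sites 28.0% were also listed for 5fC on the same base and strand (Wilson interval 28.0 to 28.1%), against 22.2% on the other 17 autosomes. Of its 5fC sites 78.5% were listed for 5hmC (78.4 to 78.6%), against 76.0% and at most 76.4% on any of the 17. At equal 5hmC reads the share was above the highest of the 17 in the 5 classes up to 32 reads: 8.15% against 6.56% at 2 reads, 16.2% against 13.1% at 5 to 8 reads and 41.7% against 40.0% at 17 to 32 reads. At 33 to 64 reads the shares were 68.4% and 68.7%, and above 64 reads both were 91.7%, within the range of the 17. Strand balance was like that of the 17: 50.0% of its 5hmC sites were on the plus strand, and where a dyad had 1 listed strand per mark (90563 dyads), the strand was shared in 80.1%, against 79.7%, within the 79.3 to 80.2% of the 17.

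**Figure D5:**
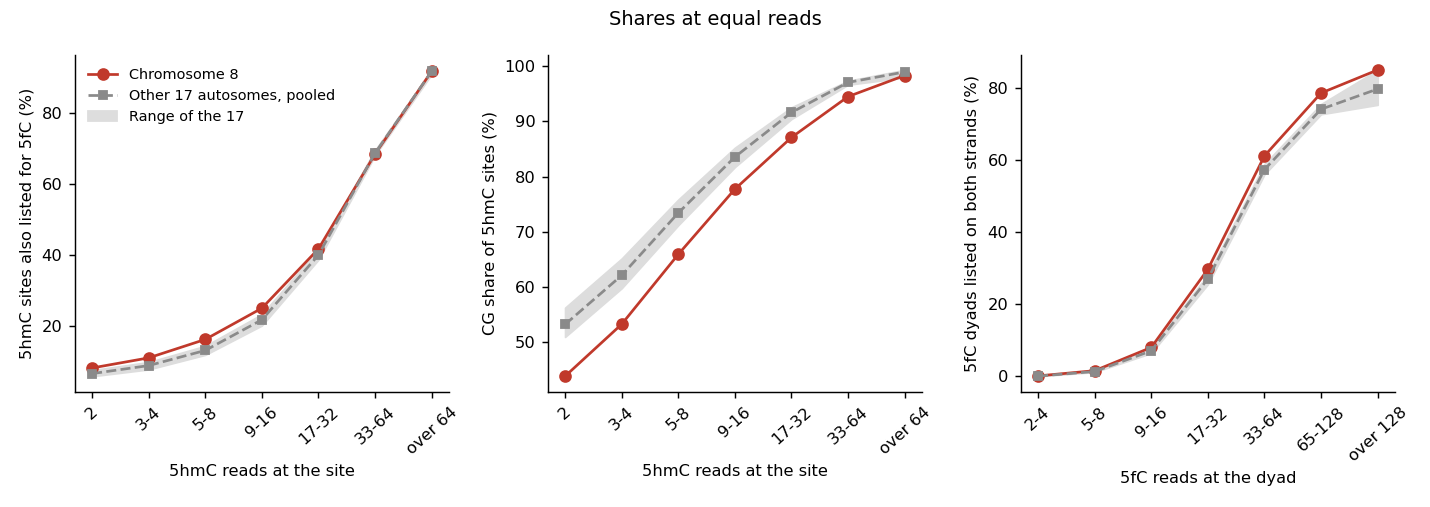
Shares at equal reads on chromosome 8 (red), on the other 17 autosomes together (grey squares) and over their single chromosomes (grey band, lowest to highest). The panels show the percent of 5hmC sites also listed for 5fC and the CG percent of 5hmC sites, by 5hmC reads at the site, and the percent of 5fC dyads listed on both strands, by 5fC reads at the dyad. The red line is below the band for CG up to 64 reads, meets the grey squares at 91.7% in the first panel, and reaches 61.2% against 57.4% at 33 to 64 reads in the third.

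Chromosome 11, the other autosome left out of the comparison set, had like values in its bins. The ratio of 5hmC reads per site was above 1 in 123 of 128 bins on chromosome 8 and in 112 of 119 bins on chromosome 11, 96.1% and 94.1%, with medians of 1.19 on chromosome 8 and 1.21 on chromosome 11. The distance between quartiles was 0.119 of the median on chromosome 8 and 0.0864 on chromosome 11, and for 5fC per 5hmC it was 0.196 on chromosome 8 and 0.130 on chromosome 11. Bins of chromosome 8 were thus more unlike each other in both measures. Several shares described above were not particular to chromosome 8. CG made up 72.5% of 5hmC sites on chromosome 8 and 72.0% on chromosome 11, and 45.5% and 46.6% of 5hmC dyads were on both strands. For 5fC dyads on both strands the shares were 25.2% on chromosome 8 and 26.4% on chromosome 11. Of the 5hmC sites, 28.0% on chromosome 8 and 29.9% on chromosome 11 were also listed for 5fC. The 5hmC pairing share was less alike, 60.4% on chromosome 8 and 62.6% on chromosome 11, against 62.5% on the other 17 autosomes. Matched on density, 11.7% of bins on chromosome 8 and 7.56% on chromosome 11 were above the median 5hmC pairing share. Of 5fC non-CG sites, 61.7% on chromosome 8 and 65.2% on chromosome 11 were paired. At equal reads chromosome 11 also lay outside the 17 in the classes compared here. At 2 5hmC reads its CG share was 42.3% and its share also listed for 5fC 9.01%. At 17 to 32 5fC reads 30.8% of its 5fC dyads were on both strands. The X chromosome, a single copy in male cells, lay on the other side, with 6.83% of 161 bins above the matched median of 5hmC reads per site and a median ratio of 0.839. Whether copy number has a part in these values was not tested.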

How the data were processed

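Per the labels' protocols, DNA was cut with PvuRts1I, 5hmC was tagged with an azide sugar, cut ends were ligated to an adapter, and sheared DNA was captured through biotin. The submitters' processing notes name CASAVA, bcl2fastq, cutadapt, Bowtie and mm9. The sources used here do not give how sites were called, how 5fC was told from 5hmC or which libraries were summed. The authors deposited 2 pooled tables of raw read counts, 1 whole number for each listed cytosine, with at least 2 reads per chromosome 8 site. Chromosome 8 held 8656601 5fC and 20738501 5hmC reads, which are not the sequencing depth, since unlisted cytosines are left out. Positions count from 1. Length was taken as the last listed base. Bins of 1 Mb needed at least 100 5hmC sites. The text names the 3 highest and 3 lowest bins by 5hmC sites and by 2 matched ratios, the 3 densest windows of 100 kb, the 3 deepest cytosines and the longest runs; other items were chosen after their values were seen. The members, lists and measures were chosen with earlier results of these data known. No model was fitted and no p-values are given, since the tables hold no replicates. Wilson intervals (95%) cover counting error only, and reads are not independent molecules. Percentages of bins carry no interval, since neighbouring bins are not independent. Alternatives were sites with at least 10 reads, no sites above 1000 reads, 18 other autosomes, CG sites alone, bins of 500 kb and 2 Mb, 10 density groups and matching on density rank. The functions were tested on simulated data, and 8 of 8 checks passed. Python 3.11.15 was used with numpy 2.4.6, pandas 2.3.3, scipy 1.17.1 and matplotlib 3.10.9.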

Additional observations from a re-analysis of the deposited data

How the results depend on the processing

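No direction reversed in any alternative run for a result, but ranges over the single chromosomes of the comparison were not computed for the alternatives. Over 8 alternatives, the percent of bins above the matched median ranged from 94.5 to 99.2% for 5hmC reads per site, from 87.4 to 93.0% for 5fC reads per site and from 61.9 to 89.8% for 5fC sites per 5hmC site. With sites of at least 10 reads, the ratios of chromosome 8 to the other autosomes were 1.50 for 5hmC and 1.70 for 5fC sites per Mb, 1.17 and 1.07 for reads per site and 1.13 for 5fC per 5hmC, the CG share differed by -3.52 percentage points and the share of dyads on both strands by 5.93. With chromosome 11 among 18 other autosomes these values were 1.27, 1.52, 1.21, 1.09, 1.20, -4.02 and 5.93. With CG sites alone the first 5 were 1.23, 1.55, 1.29, 1.12 and 1.26. The ratio of 5fC reads per site was 1.13 once sites above 1000 reads were left out. The causes of these moves were not tested. Matching on CG dinucleotides in the sequence was not run without an mm9 genome, and leaving out libraries was not run without counts per library. No paired analysis was possible because reads are summed over libraries in each table.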
